A study of Caenorhabditis elegans with 6 samples.

Results

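The Wnt receptors of motor neurons described here are 6 genes: the 4 Frizzled genes mig-1, mom-5, lin-17 and cfz-2, the Ror gene cam-1 and the Ryk gene lin-18. Every probe set whose single gene symbol in the platform's gene table is one of these was taken, which gave 11 of 22548 probe sets, 2 for each gene but lin-18, which has 1. They were measured in poly(A) RNA of Caenorhabditis elegans larvae at the L2 stage, grown at 25 °C, on 3 arrays from mutants with the genotype unc-37(e262) and 3 from wild-type animals (N2). In all 6 samples the RNA came from animals making FLAG-tagged PAB-1, which binds the poly(A) tails of messenger RNA, under the unc-4 promoter, which the labels give as active in the DA and VA (A-class) motor neurons. unc-37 encodes a Groucho corepressor that works together with UNC-4, a homeodomain factor, and the comparison asks how transcripts of these neurons differ without its normal function. The labels call the samples biological replicates but do not say that they came from separate cultures, so the p-values measure only the spread between these samples.

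Wnts are secreted proteins that guide cell polarity, migration, axon growth and synapse placement. Frizzled receptors cross the membrane repeatedly and bind Wnt through a cysteine-rich domain outside the cell. Dishevelled carries their signal inward, and in the canonical branch beta-catenin is then spared from destruction and acts with a TCF factor on target genes. Ror receptors are tyrosine kinases that carry a Frizzled-like cysteine-rich domain, and Ryk receptors bind Wnt through another kind of domain. In the worm the gradient of Wnts along the body sets how neurons migrate and orient, and earlier work placed Frizzled receptors upstream of the homeodomain gene ceh-12 in A-class neurons.

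Values below are log2 intensities of single probe sets; the median over all probe sets of an array was 5.65 to 5.71 on this scale. Different probe sets bind with different strength, so their levels do not rank the receptors, and each is compared only with itself between genotypes. Log2 levels correlated at r = 0.984 to 0.991 between arrays of one genotype and at 0.964 to 0.981 between genotypes. A probe set is called where limma's adjusted p over all 22548 probe sets is below 0.05. Signal in these bulk samples cannot tell more RNA per cell from more cells of a kind. The array numbers in the labels are 73 to 85 for wild type and 89 to 98 for unc-37; should they mark when arrays were run, time and genotype cannot be told apart.

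mig-1 and mom-5 rose in unc-37 arrays, as did cam-1, while lin-17, cfz-2 and lin-18 were not called. At the brightest probe set, the log2 change from wild type to unc-37 was 0.99 ± 0.16 (SE, n = 3 per group here and throughout) for mig-1, 0.83 ± 0.14 for mom-5 and 0.59 ± 0.09 for cam-1. Of the 11 receptor probe sets, 4 were called higher and none lower, and 7 had an unadjusted p below 0.05. Among all probe sets 6.42% were called, 3.85% were called higher, and 20.8% had an unadjusted p below 0.05. That background moves with single arrays: with wild-type replicate 1, wild-type replicate 2 or unc-37 replicate 1 left out, the 1447 called probe sets became 785, 614 and 650, while the receptor probe sets called were 4, 3 and 4. By gene, 3 of the 6 receptors were called higher at the brightest probe set, against 3.94% of 17118 genes called higher and 2.81% called lower. The receptors were chosen with the rises of mig-1, mom-5 and cam-1 already known, so these comparisons with all features are descriptions only. The median change was 0.45 over the 11 probe sets and -0.01 over all probe sets. In 7 of the 11 every unc-37 array lay above every wild-type array, as it did in 12.8% of all probe sets.

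**Figure D1:**
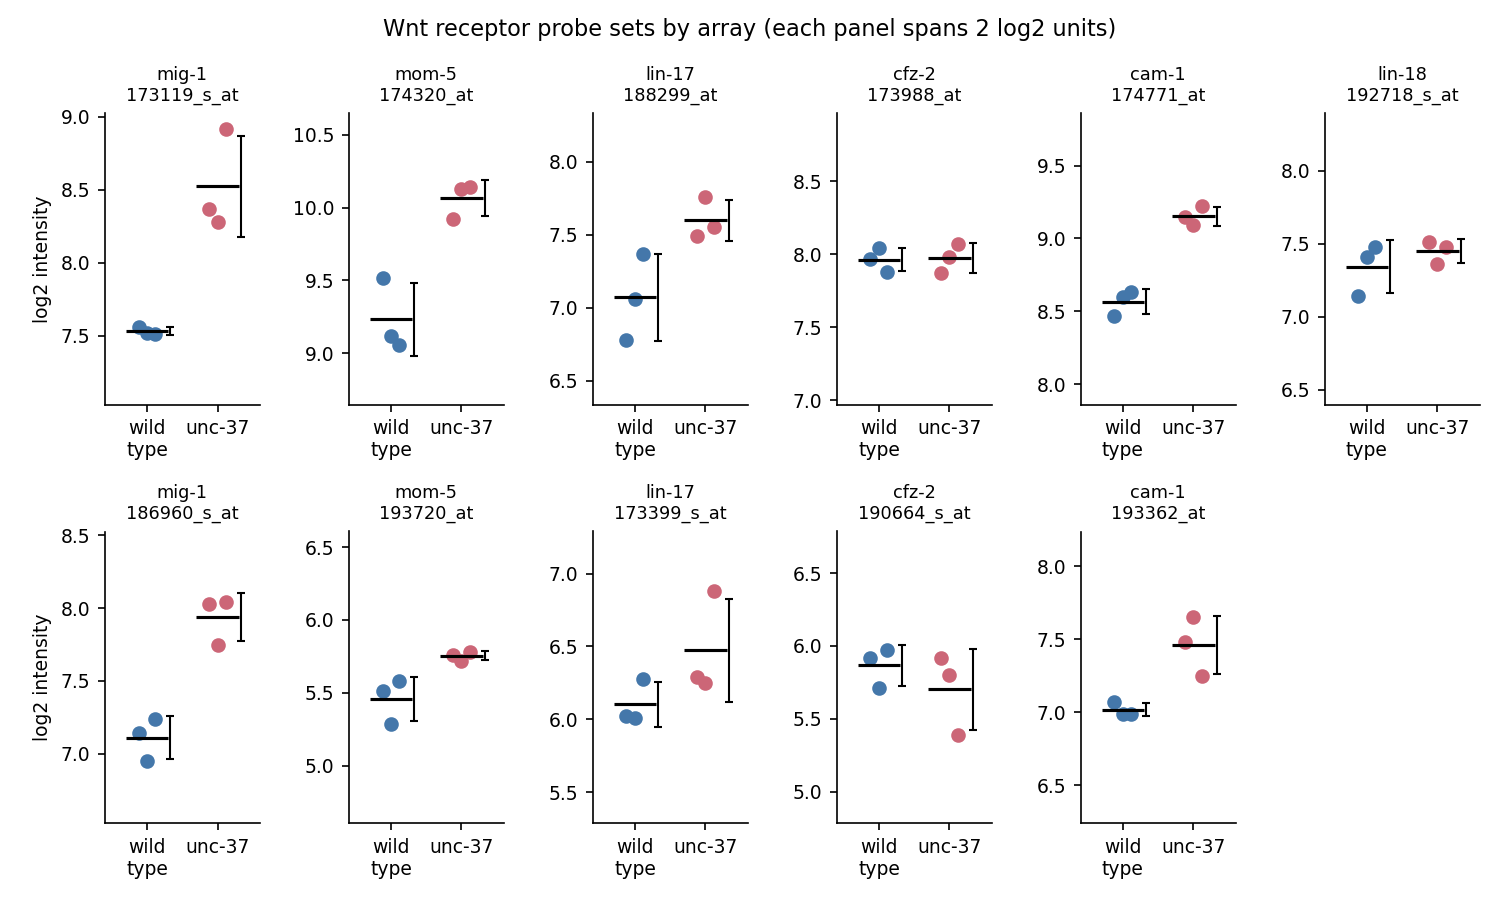
Log2 intensity (vertical axis) of the 11 Wnt receptor probe sets on each array, 3 wild type (blue) and 3 unc-37 (red); the upper row holds the brightest probe set of each gene, the bar is the mean and the whisker the SD. The unc-37 points stand clear of the wild-type points in both panels of mig-1, mom-5 and cam-1, and overlap them in both panels of cfz-2 and in that of lin-18.

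mig-1 encodes a Frizzled known for guiding the descendants of the left Q neuroblast in response to the Wnt EGL-20. Its brighter probe set (173119_s_at) read 7.56, 7.52 and 7.51 in wild-type replicates 1 to 3 and 8.37, 8.28 and 8.92 in unc-37 replicates 1 to 3. The wild-type arrays lay within 0.05 of each other, and the lowest unc-37 array was 0.72 above the highest of them. This is a 1.99-fold rise (95% interval of the log2 change 0.63 to 1.36, limma adjusted p = 0.00993). unc-37 replicate 3 was the highest of the group, and without it the change was 0.80 and still called (adjusted p = 0.0063). The dimmer probe set (186960_s_at) read 7.14, 6.95 and 7.24 in wild type and 8.03, 7.75 and 8.04 in unc-37. It rose 1.78-fold, by 0.83 ± 0.12 (adjusted p = 0.00643), again with no overlap. mig-1 is the one receptor with both probe sets called, and both remained called without any single array. The probe sets are of the kind (_s_at) that can also bind other transcripts of like sequence.

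mom-5 encodes the Frizzled that acts with the Wnt MOM-2 in polarising cells of the early embryo, and later in neuronal migration. Its brighter probe set (174320_at) read 9.52, 9.12 and 9.06 in wild type and 9.92, 10.13 and 10.14 in unc-37. Wild-type replicate 1 stood above the other wild-type arrays and was still 0.40 below the lowest unc-37 array. The rise was 1.78-fold, 0.83 ± 0.14 on the log2 scale (adjusted p = 0.0113), and its call ended when wild-type replicate 2 was left out (change 0.78, adjusted p = 0.0525). The dimmer probe set (193720_at), close to the median level of the arrays, read 5.51, 5.29 and 5.58 in wild type and 5.76, 5.72 and 5.78 in unc-37. Its groups did not overlap either, but its change of 0.29 ± 0.10 was not called (adjusted p = 0.143). The bright minus the dim probe set went from 3.77 ± 0.27 (SD) in wild type to 4.31 ± 0.13 in unc-37, a difference of 0.54 ± 0.18 (SE) with no overlap between genotypes. An exact two-sided permutation test gave p = 0.1, the smallest that 3 arrays against 3 allow, and 0.25 after adjustment over the 10 pairs of probe sets compared.

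lin-17 encodes the Frizzled known as the main receptor of the Wnt LIN-44 in the tail. Its brighter probe set (188299_at) read 6.78, 7.06 and 7.37 in wild type and 7.49, 7.76 and 7.55 in unc-37. The wild-type arrays spread over 0.59, and the lowest unc-37 array was only 0.12 above the highest of them. The change was 0.53 ± 0.15 (95% interval 0.18 to 0.89, adjusted p = 0.0847). It was called without wild-type replicate 3 (0.68, adjusted p = 0.0242) and with array weights (0.55, adjusted p = 0.0461). The other probe set (173399_s_at) read 6.02, 6.01 and 6.28 in wild type and 6.29, 6.25 and 6.88 in unc-37, so that the groups overlapped. Its change was 0.37 ± 0.17 (adjusted p = 0.274).

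cfz-2 encodes the remaining Frizzled, which acts in anterior cell migration. Its brighter probe set (173988_at) read 7.97, 8.04 and 7.88 in wild type and 7.87, 7.98 and 8.07 in unc-37. The ranges were nearly the same, and the change was 0.01 ± 0.09, with a 95% interval of -0.20 to 0.23. The other probe set (190664_s_at) read 5.92, 5.71 and 5.97 against 5.92, 5.80 and 5.39, a change of -0.16 ± 0.15. Neither was called (adjusted p = 0.965 and 0.592), and the interval of the brighter one leaves out changes as large as those measured for mig-1 and mom-5.

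cam-1 encodes the Ror receptor, known for cell migration, for binding Wnt away from other receptors, and for placing acetylcholine receptors at the neuromuscular junction. Its brighter probe set (174771_at) read 8.47, 8.60 and 8.63 in wild type and 9.15, 9.09 and 9.22 in unc-37. These are tight groups, with SDs of 0.09 and 0.06 and a gap of 0.46 between them. The rise was 1.5-fold (95% interval of the log2 change 0.38 to 0.79, adjusted p = 0.00868) and remained called without any single array (adjusted p 0.0145 to 0.0419). The dimmer probe set (193362_at) read 7.07, 6.99 and 6.99 against 7.48, 7.65 and 7.25, again with no overlap. Its change of 0.45 ± 0.12 just missed the threshold (adjusted p = 0.0587) and was called without unc-37 replicate 3 (0.56, adjusted p = 0.0252). The bright minus the dim probe set changed by 0.14 ± 0.17, within the spread between arrays (exact permutation p = 0.4).

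lin-18 encodes the Ryk receptor, which acts beside lin-17 in orienting vulval cells. Its probe set (192718_s_at) read 7.14, 7.41 and 7.48 in wild type and 7.51, 7.36 and 7.48 in unc-37. The groups overlapped, and the change was 0.10 ± 0.11 (95% interval -0.15 to 0.36, adjusted p = 0.664).

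**Figure D2:**
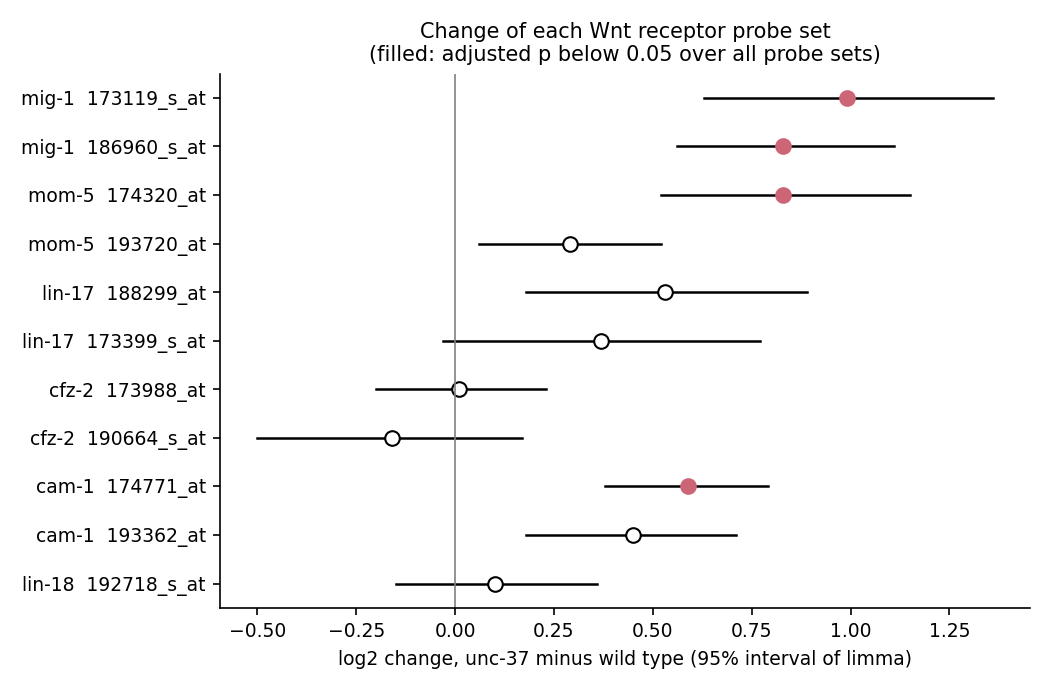
Log2 change from wild type to unc-37 (horizontal axis) of each receptor probe set, as a point with limma's 95% interval; filled points have an adjusted p below 0.05 over all probe sets. Both mig-1 points, 1 of 2 mom-5 points and 1 of 2 cam-1 points are filled, and the cfz-2 and lin-18 intervals span 0.

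Whether mig-1 changed more than the other receptors was asked within each array, as the log2 ratio of the brightest probe sets. Against cfz-2 the ratio was -0.41, -0.52 and -0.38 in wild type and 0.50, 0.30 and 0.84 in unc-37, a difference of 0.98 ± 0.17. Against lin-18 the difference was 0.89 ± 0.22 and against cam-1 0.41 ± 0.18. In these 3 ratios the genotypes did not overlap, at an exact permutation p of 0.1 each, or 0.25 adjusted over the 10 pairs. The ratio of mig-1 to mom-5 moved by 0.16 ± 0.22 (exact permutation p = 0.4) and that to lin-17 by 0.46 ± 0.31 (exact permutation p = 0.2), with overlap in both. This design cannot pass 0.05 for a single ratio, so none of the differences is called.

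The rises of mig-1, mom-5 and cam-1 came with a wider rise of neuronal transcripts in the same arrays. unc-4, whose promoter drove the tag, went from 7.43 ± 0.69 (SD) to 10.17 ± 0.28 (change 2.74, adjusted p = 0.00245). unc-37 itself changed by 0.50 ± 0.09 (SE; adjusted p = 0.0159) at its brightest probe set, and its other 2 were not called. pab-1, the tagged coding sequence, changed by 0.17 to 0.35 at 3 probe sets, none called. Of 6 markers of A-class and cholinergic neurons all were called higher, and of 14 pan-neuronal genes 10 were, with none lower and median changes of 1.11 and 0.78. The pan-neuronal changes ran from -0.17 to 1.2, with 13 above 0 and 1 below, the latter without overlap between genotypes. The summed intensity of the A-class and cholinergic markers was 1211 to 1701 in wild type and 3383 to 3960 in unc-37. unc-4 is among these markers, so its rise enters their count and sum again. The others of the list changed by 0.94 to 1.32. The summed intensity of the pan-neuronal genes was 7209 to 8549 in wild type and 12460 to 13419 in unc-37. None of 10 body wall muscle markers was called by limma (1 at an unadjusted p below 0.05, median 0.05), with sums of 13332 to 15952 and 13044 to 16097. Of 7 hypodermal markers 2 were called lower and none higher (4 at an unadjusted p below 0.05, median -0.35). Their changes were mixed, from -0.96 to 0.59, with 5 below 0 and 2 above. The hypodermal sums were 16491 to 24563 in wild type and 10003 to 15267 in unc-37. They mostly follow dpy-13, dpy-4 and sqt-3, the brightest of the list (wild-type means 12.9, 12.38 and 12.13). The first 2 of these are the markers called lower. All are on probe sets (_x_at) that related transcripts may bind too. Of 5 GABA neuron markers, 1 was called higher and none lower (median 0.12, sums 531 to 598 and 662 to 961). Of 5 B-class markers, ceh-12 among them, 4 were called higher (median 0.95, sums 346 to 365 and 695 to 721). The remaining B-class marker, acr-5, changed by 0.01 (limma adjusted p = 0.979). Whether the B-class rise is part of the wider neuronal rise was not tested. Among 6 intestinal, 4 pharyngeal muscle and 2 coelomocyte markers none was called, with medians of -0.12, -0.11 and -0.25 (1, none and 1 at an unadjusted p below 0.05). Their sums were 8356 to 9363, 2308 to 3334 and 168 to 174 in wild type and 6409 to 8374, 2061 to 2803 and 114 to 165 in unc-37. No marker of the labelled neurons is at 0, since array signals have no true zero, and RNA of whole larvae was not analysed here, so enrichment over other cells was not measured.

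**Figure D3:**
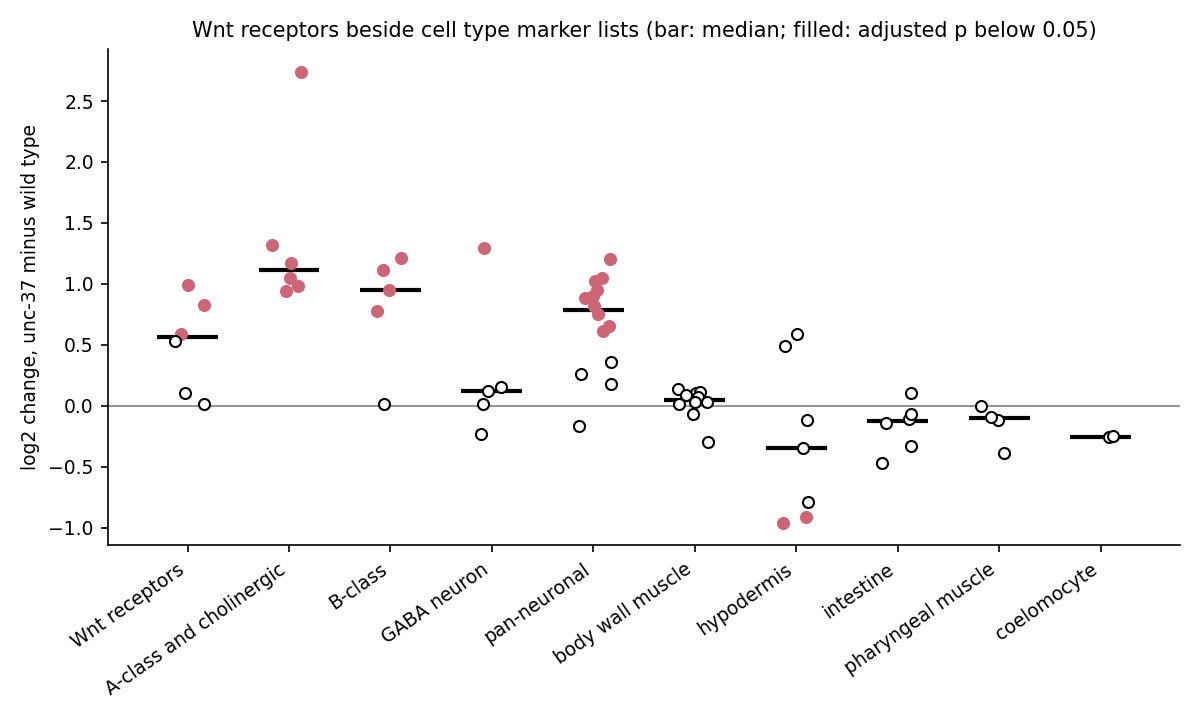
Log2 change from wild type to unc-37 (vertical axis) of the 6 receptors and of each cell type marker list, 1 point per gene at its brightest probe set, with filled points called and bars at the medians. The receptor median of 0.56 lies below those of the A-class and cholinergic (1.11), B-class (0.95) and pan-neuronal (0.78) lists. It lies above those of the GABA neuron (0.12) and body wall muscle (0.05) lists and of the rest, which are below 0.

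Set against the mean of the 14 pan-neuronal genes, which was 8.26 to 8.45 in wild type and 8.94 to 9.10 in unc-37, no receptor was called higher. This scaling takes 0.68 from every log2 change. The brighter mig-1 probe set was then at -0.89, -0.74 and -0.81 in wild type and -0.73, -0.73 and -0.02 in unc-37, a change of 0.32 ± 0.17 that was not called (adjusted p = 0.0914). Its value was largest in unc-37 replicate 3. The dimmer mig-1 probe set changed by 0.16 ± 0.15 (limma adjusted p = 0.303), with overlap between genotypes. mom-5 was at 0.16 ± 0.15 (0.323) at its brighter probe set, cam-1 at -0.09 ± 0.14 (0.555) and lin-17 at -0.14 ± 0.17 (0.431). cfz-2 fell relative to the pan-neuronal mean, by 0.67 ± 0.15 and 0.84 ± 0.14 at its probe sets (adjusted p = 0.000465 and 0.000106). lin-18 fell by 0.57 ± 0.15 (0.0021) and the dimmer mom-5 probe set by 0.39 ± 0.14 (0.0139). On this scale 4 receptor probe sets were called lower, while 20377 of all 22548 probe sets were called lower too. What part the wider neuronal rise has in the receptor changes was not tested.

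**Figure D4:**
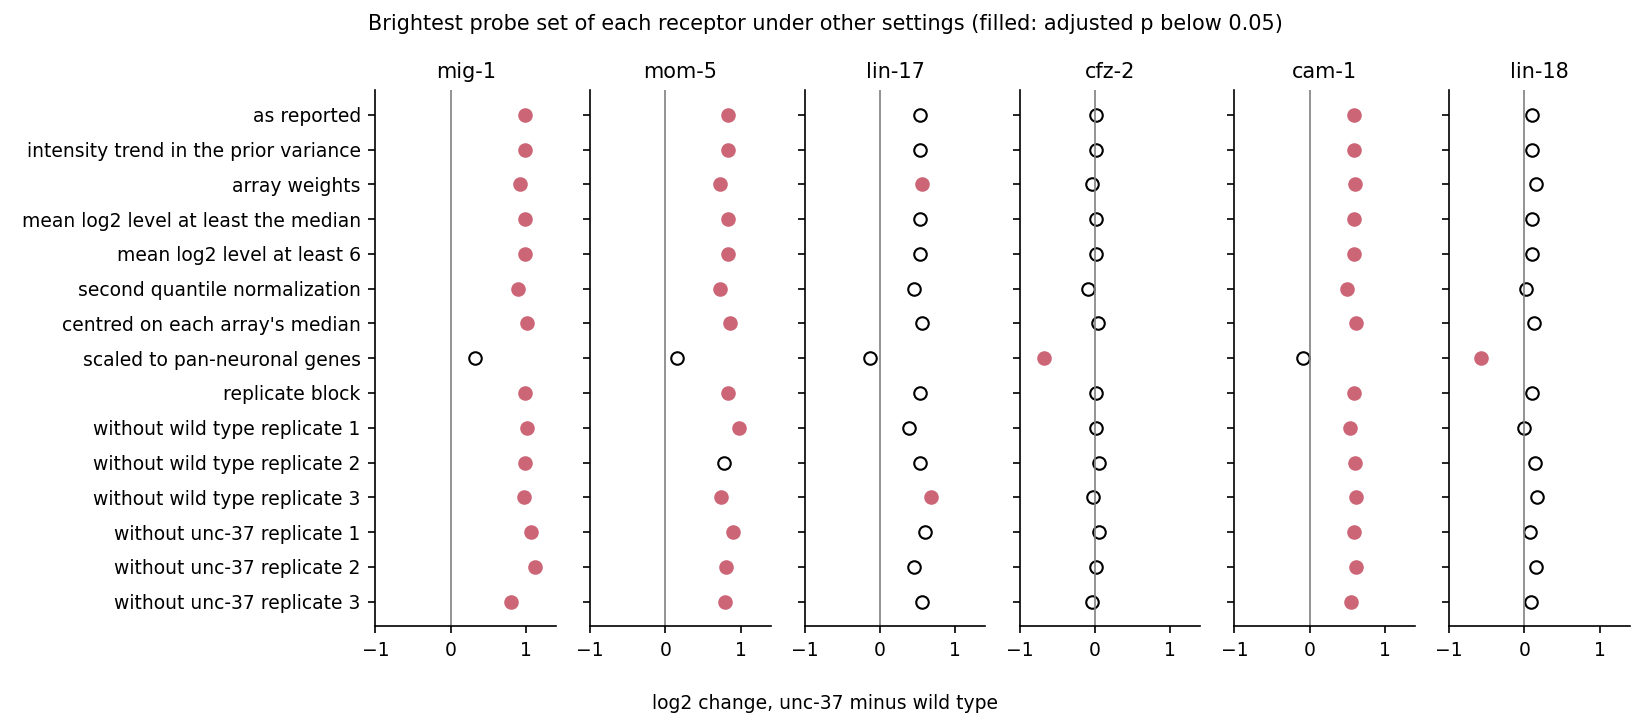
Log2 change (horizontal axis) of the brightest probe set of each receptor under each setting of the analysis, 1 line per setting; filled points have an adjusted p below 0.05. mig-1 and cam-1 stay filled in every line but the scaling to pan-neuronal genes, and mom-5 in every line but that and the one without wild-type replicate 2.

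Of 35 other genes of Wnt signalling, 4 were called higher and none lower, and 14 had an unadjusted p below 0.05. Over the 17118 genes 3.94% were called higher and 21.4% had an unadjusted p below 0.05. The 35 genes had a median change of 0.13, beside -0.01 over all genes and 0.56 over the 6 receptors. The called genes were ceh-12 (0.95 ± 0.13, adjusted p = 0.0045), the Wnt gene cwn-1 (0.61 ± 0.15, 0.0474), the Dishevelled gene dsh-1 (0.53 ± 0.12, 0.0404) and the glypican gene lon-2 (0.52 ± 0.11, 0.0281). ceh-12, placed downstream of Frizzled receptors by earlier work, read 6.13, 6.42 and 6.26 in wild type and 7.25, 7.40 and 7.02 in unc-37, with a gap of 0.59 between the groups. ceh-12 was called without any single array, but not with the scaling to pan-neuronal genes (0.27, limma adjusted p = 0.0998). ceh-12 is also among the B-class markers counted above. The calls of cwn-1, dsh-1 and lon-2 each ended with a variance trend, with another quantile normalization and without wild-type replicate 1, wild-type replicate 2 or unc-37 replicate 1, and their adjusted p reached 0.159, 0.138 and 0.111 without single arrays. The count of 4 pathway genes was 1 without wild-type replicate 1 or unc-37 replicate 1, and 2 without wild-type replicate 2 or unc-37 replicate 2. The other probe sets of dsh-1 (0.22 and 0.22) and lon-2 (-0.16) were not called.

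By role, the ligands other than cwn-1 were not called. Among them were egl-20, the Wnt that mig-1 is known to answer (0.03, adjusted p = 0.891), and lin-44, that of lin-17 (0.25, 0.302). Both lay below the median level of the arrays. egl-20 averaged 5.42 in wild type and 5.46 in unc-37, and lin-44 averaged 4.61 and 4.87. Of 5 ligands, 2 had an unadjusted p below 0.05. These were cwn-1 and cwn-2, the latter named after its values were seen. cwn-2 changed by 0.52 (limma adjusted p = 0.105), with no overlap. Its means, 4.89 in wild type and 5.41 in unc-37, were below the median level of the arrays too. Ligands can act from other cells, so their levels in this RNA do not give what reaches the neurons. Of 6 genes that control Wnt outside the cell or the number of receptors, lon-2 was called higher and none lower, and 2 had an unadjusted p below 0.05. The second of these is the other glypican gene, gpn-1, named after its values were seen. It read 6.74, 7.01 and 6.74 in wild type and 6.54, 6.28 and 6.25 in unc-37, with no overlap. Its change of -0.47 ± 0.12 was not called (adjusted p = 0.0555). All 3 Dishevelled genes had an unadjusted p below 0.05, and at the brightest probe sets dsh-1 alone was called. mig-5 was called only at its dimmer probe set (0.56, limma adjusted p = 0.0123). In the other direction, dsh-2 was at -0.43 (0.0918), with its other probe set at 0.02. None of 4 beta-catenin genes was called by limma (2 at an unadjusted p below 0.05), including the canonical one, bar-1 (0.37, 0.126). None of 5 destruction complex genes and none of 3 genes of TCF and the Nemo branch was called by limma, and none had an unadjusted p below 0.05; their changes lay between -0.08 and 0.20. None of 5 genes that make or release ligands was called by limma (2 at an unadjusted p below 0.05), and none of 3 planar polarity genes was (also 2).

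**Figure D5:**
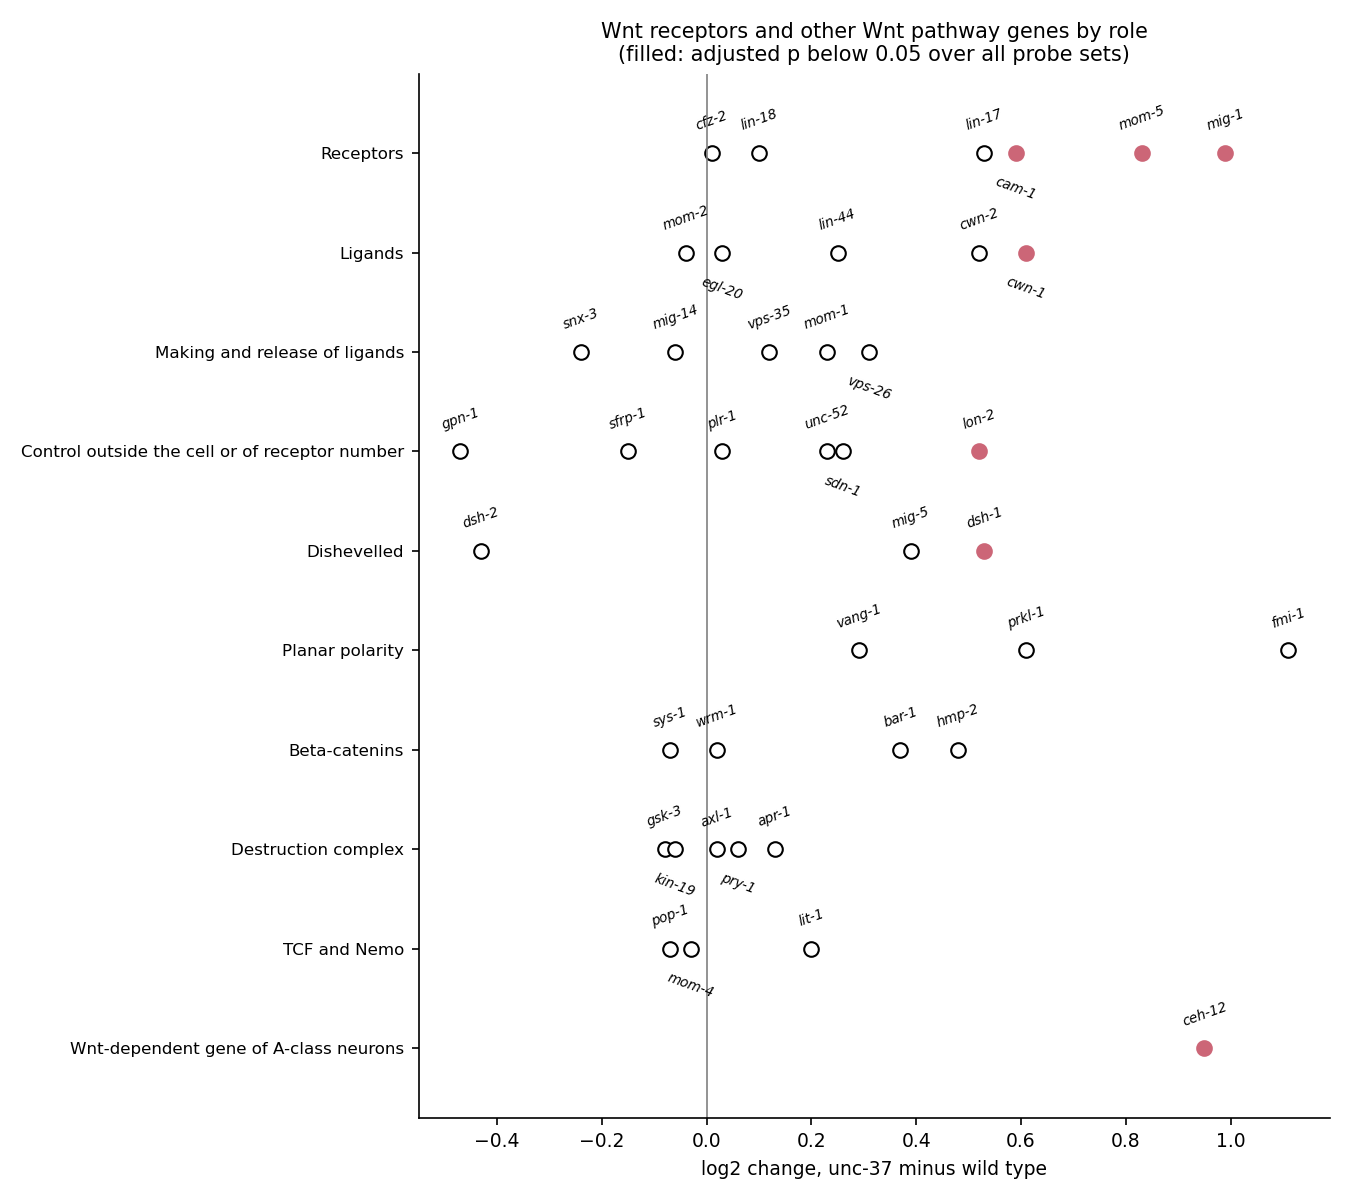
Log2 change from wild type to unc-37 (horizontal axis) of the 6 receptors and 35 other Wnt pathway genes by role, at the brightest probe set of each; filled points have an adjusted p below 0.05. mig-1, mom-5, cam-1, cwn-1, lon-2, dsh-1 and ceh-12 are filled, while the destruction complex lies close to 0.

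Genes whose log2 levels ran most like each receptor over the 6 arrays were sought among 5082 genes with a symbol and a mean log2 level of at least 6. For mig-1 they were rab-14 (r = 0.997), pct-1 (0.995) and cfp-1 (0.995), which changed by 0.45, 0.74 and 0.38; the last was not called (adjusted p = 0.0653). For mom-5 they were lron-5 (r = 0.999), with a change of 0.92, apa-2 (0.996) and nlp-99 (0.993). For cam-1 they were fbxa-124 (r = 0.998), mppb-1 (0.994) and flcn-1 (0.994). For lin-17 they were the mitochondrial ribosomal protein genes mrps-23 (r = 0.999) and mrpl-11 (0.996), and icd-2 (0.995), none of them called. For cfz-2 they were kin-4 (r = 0.961), cnnm-4 (0.960) and rme-4 (0.958). For lin-18 they were cbd-1 (r = 0.990), nduf-2.2 (0.986) and parg-1 (0.980). No gene appears for more than 1 receptor. With so few arrays and so many genes, high values of r arise easily, and the arrays share their genotype difference, so these are descriptions only.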

How the data were processed

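Each array's deposited column holds 1 linear intensity for every probe set, made by the authors with RMA, per the submitters' processing notes; its version is not given in the sources used here. The linear scale was read from the values, which reach 12124 to 15148. Per the labels, RNA went through 2 rounds of in vitro transcription and was labelled with biotin, 1 colour per array. Such amplification favours the ends of transcripts near the poly(A) tail. Whether this has a part in how probe sets of one gene differ was not tested. Values were log2 transformed and not normalized again or filtered. Of 22548 probe sets, 20766 named 1 gene, 887 several and 895 none; none of those naming several named a receptor.

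The test was limma 3.58.1 (lmFit, eBayes; R 4.3.3), two-sided, its p-values adjusted by Benjamini-Hochberg over the whole table; a change is unc-37 minus wild type. A gene stands at its brightest probe set. The fit was tested on simulated data. Single ratios were compared by exact permutation (scipy 1.17.1), adjusted over 10 pairs. The number of arrays limits the precision. Alternatives were a variance trend, array weights, filters on dim probe sets, another quantile normalization, median centring, scaling to 14 pan-neuronal genes, a replicate block, leaving out single arrays, other thresholds and averaging the probe sets of a gene. Named are all receptors, unc-37, unc-4, pab-1, called pathway genes and egl-20, lin-44, cwn-1, dsh-1, dsh-2, bar-1 and ceh-12, and the 3 genes most like each receptor. Of the marker genes, col-10 had no probe set of its own and has no value here. The receptors, lists and alternatives were chosen with earlier results of these data known, and the rises of mig-1, mom-5 and cam-1 were among those. No sequence is shown, as none was given with the sources used here.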

Additional observations from a re-analysis of the deposited data

How the results depend on the processing

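The count of 4 receptor probe sets called higher was 3 to 6 under every alternative but 1, and that of 3 receptor genes 2 to 4. The exception was scaling to pan-neuronal genes, which gave 4 probe sets and 2 genes, all of them lower. This scaling turned the sign of lin-17 (-0.14 and -0.31), cam-1 (-0.09 and -0.23), lin-18 (-0.57), cfz-2 (-0.67) and the dimmer mom-5 probe set (-0.39), and of egl-20 (-0.64), cwn-1 (-0.07), lin-44 (-0.42), lon-2 (-0.16), dsh-1 (-0.14) and bar-1 (-0.30), since it takes 0.68 from every change by construction. The change of cfz-2, near 0, was also below 0 with array weights (-0.04) and another quantile normalization (-0.09), and ranged from -0.04 to 0.06 without single arrays; that of egl-20 ranged from -0.02 to 0.11. The 1447 called probe sets became 2234 with array weights, 20561 with the pan-neuronal scaling, 2338 at an adjusted p below 0.1 and 614 to 1677 without single arrays. The 4 other pathway genes called became 1 with a variance trend, 8 with array weights, 2 with another quantile normalization (1 higher and 1 lower), 23 lower with the pan-neuronal scaling, 10 at an adjusted p below 0.1, 2 with a fold of at least 1.5 and 1 to 4 without single arrays. Other than for the scaling and the thresholds, the cause was not tested. With the replicate block, 1065 probe sets and the same number of receptor probe sets, 4, were called. Deviations from the genotype mean correlated at -0.19, -0.14 and -0.10 between same-numbered arrays, and at 0.05 to 0.1 between the others. These values do not settle whether the numbers pair the arrays, since the 3 deviations within a genotype sum to 0. Probe sets near or below the median level of the arrays may carry little signal over background, which was not measured. These include the dimmer ones of mom-5 and cfz-2 and those of egl-20, lin-44 and cwn-2. Some genes of the beta-catenin, destruction complex, TCF and Nemo, and ligand release roles are as dim. A missing call at such a probe set does not show an unchanged transcript.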

Other observations

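Some Wnt pathway values were singled out after they were seen. fmi-1, a Flamingo cadherin of planar polarity known for axon guidance, read 8.24, 8.01 and 7.50 in wild type and 8.88, 9.75 and 8.45 in unc-37. Its change of 1.11 was above that of mig-1, but its arrays spread widely and it was not called (adjusted p = 0.0809). The Dishevelled gene mig-5 was not called at its brightest probe set (0.39, adjusted p = 0.063) and was called at a dimmer one (0.56, adjusted p = 0.0123), whose suffix (_x_at) marks probes that related transcripts may bind too.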
